A study of Mus musculus with 18 samples.

Results

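The 41 genes described here encode proteins of mitosis, from the kinase that starts it to the ring that ends it, together with the condensin I complex and topoisomerase II alpha, which shape the mitotic chromosome. They were taken by name and function from a table of 18659 genes and not by any measured value, though with earlier results of these data known. By role they comprise 9 genes of mitotic entry, 5 of the spindle checkpoint, 4 of anaphase onset, 7 of the centromere and the chromosomal passenger complex (CPC), 6 of chromosome structure, 6 of the spindle and 4 of cytokinesis. The study asked what *Stag1*, a subunit of the cohesin ring, and the isoforms made from its ends do in mouse embryonic stem cells (mESCs). RNA-seq libraries depleted of rRNA were made from male E14 mESCs grown in serum (FCS) with LIF. All groups share this line, the only one used, and these conditions.

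Cells were transfected for 24 h with siRNA in 3 replicate sets. Control cells received scrambled siRNA (scr), with 1 library in each set. The SP knockdown (KD) used a pool of siRNAs along *Stag1* and had 3 libraries in set 1, named 1a, 1b and 1c, and 1 library each in sets 2 and 3. The 3p KD used a smaller pool against the 3′ end, the 5p KD a single custom duplex against the 5′ end, and the SATS KD an enzymatically prepared siRNA mixture against the 5′ UTR that belongs to an upstream start site of *Stag1*. The 3p, 5p and SATS KDs had 1 library each in sets 2 and 3. Set 2 also held 1 library of untreated cells, and set 3 held 1 library of cells given siRNA to luciferase, a gene that mouse cells lack. A 5p effect therefore rests on 1 siRNA sequence. The methods name the luciferase control as an enzymatically prepared siRNA too, which scr is not. SATS was the only KD with such a mixture. In its comparisons with scr and with the other KDs, the target and the type of siRNA therefore cannot be told apart. By their catalogue numbers the siRNAs of the 3p pool are also in the SP pool, so SP and 3p are not independent reagents. The study calls its replicates independent, but the labels do not say that the sets were separate cultures, so p-values measure the spread between these libraries, which may be technical.

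Mitotic genes are transcribed late in the cell cycle. Cyclin B and CDK1 drive entry, condensin compacts the chromosomes, the checkpoint holds anaphase until every kinetochore is attached, and separase then cuts the cohesin ring that joins the sister chromatids. Many of these promoters carry CCAAT boxes, bound by NF-Y, and a short element near the start called the cell cycle genes homology region (CHR), bound by the MuvB complexes that silence the genes in G1 and activate them before mitosis. mESCs divide quickly and have a short G1 phase, so that these genes are well expressed in bulk RNA from such cultures.

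The promoter letters show what the members share beyond their function. RefSeq promoters (GRCm38.p6, 250 bases before to 50 after the start) were matched for 33 of the 41 members, with 35 promoters, because *Bub3* and *Prc1* have 2 overlapping ones each. *Aurkb*, *Ccna2*, *Cdc25c*, *Dlgap5*, *Incenp*, *Kif20a*, *Smc4* and *Tpx2* were not matched. Both strands were searched for the CHR as TTTGAA or as TTCGAA, which reads the same on both strands, and for CCAAT. The windows below are those of the members whose values are given in full, 30 bases each, 5′ to 3′ on the gene's strand, with the motif in capitals (TTCAAA is TTTGAA on the other strand). Positions count from 1 at the first transcribed base. For *Ccnb1*, whose window held no CHR letters, a CCAAT box is shown instead.
*Hmmr*, CHR at position 9, chr11:40733412-40733441, minus strand: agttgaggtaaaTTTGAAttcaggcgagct
*Ncapg*, CHR at position -30, chr5:45669883-45669912, plus strand: ccgcgatagttgTTTGAAaactctggcgct
*Smc2*, CHR at position 27, chr4:52439235-52439264, plus strand: ctcgcgccgaaaTTCAAAggaacagttccg
*Espl1*, CHR at position -27, chr15:102296254-102296283, plus strand: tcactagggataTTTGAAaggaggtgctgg
*Cdk1*, CHR at position -15, chr10:69352910-69352939, minus strand: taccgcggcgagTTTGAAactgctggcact
*Plk1*, CHR at position 31, chr7:122159453-122159482, plus strand: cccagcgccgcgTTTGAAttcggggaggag
*Top2a*, CHR at position -23, chr11:99024195-99024224, minus strand: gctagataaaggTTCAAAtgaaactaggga
*Ccnb1*, CCAAT at position -67, chr13:100786536-100786565, minus strand: gccacgaactggCCAATgaggagcgagcgg

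A CHR in either form was found in 25 of the 33 members matched, or 77.1% of their promoters, against 14.2% of 16814 promoters of genes in the table. In 23 of the 25 members it lay within 50 bases of the start, the exceptions being *Kif2c* and *Ncapd2*. Of all promoters, 3.66% held a CHR that close. CCAAT was found in 80.0% of the member promoters and 37.3% of all, and a CHR together with CCAAT in 71.4% and 5.77%. *Birc5*, *Mad2l1*, *Ncaph*, *Nusap1* and *Pttg1* held none of the 3 motifs in this window. These are matches of letters, not sites shown to be bound.

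**Figure D1:**
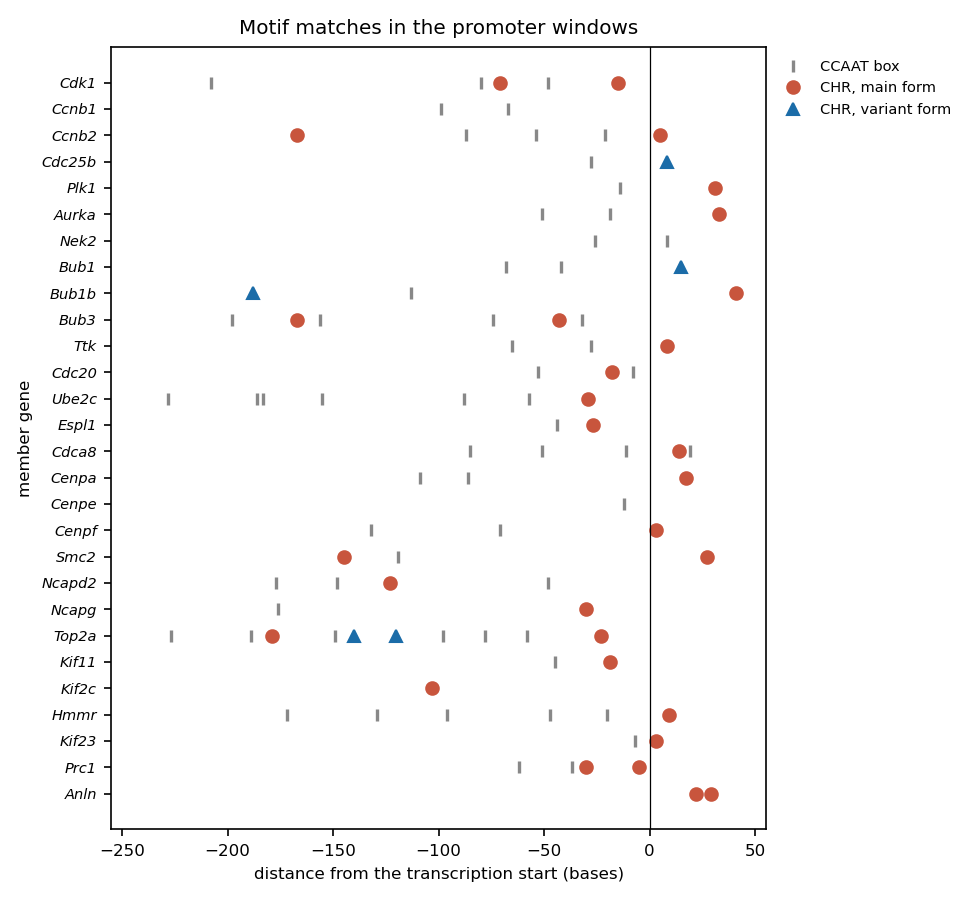
Matches to CCAAT (grey bars) and to the CHR as TTTGAA (red circles) or TTCGAA (blue triangles) in the members with at least 1 match, by distance in bases from the annotated transcription start. In 23 members a CHR match sits within 50 bases of the start, while CCAAT boxes lie on either side of the CHR matches (downstream in *Cdc20* and *Bub3*, for example); *Bub3* and *Prc1* show the matches of both their promoters.

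The members were measured deeply. In sets 2 and 3 each library held 32137700 to 45660800 reads on genes (rounded to 6 digits), of which the members took 207954 to 298117, with at least 494 for the lowest member of any library. Set 1 was shallower and was dominated by rRNA: *Rn45s* took 69.2% to 79.1% of its reads on genes against 14.7% to 23.9% elsewhere, and its members took 14101 to 35827 reads. The 8 marker genes of mESCs, among them *Pou5f1*, summed to between 30117 and 64140 normalised reads in all 16 libraries. Values below are reads divided by 1 size factor per library, as deposited, and are called normalised read counts. In bulk RNA, fewer cells in mitosis and less RNA per cell cannot be told apart. The study reports that KD with the siRNAs of its first experiments, the SP pool, left the cell cycle unaffected. These libraries do not measure the cell cycle.

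*Stag1* itself was low in every KD library. Its normalised read count was 2016, 1876 and 2113 in the scr libraries of sets 1, 2 and 3. SP KD left 512, 627 and 660 in libraries 1a, 1b and 1c, 406 in set 2 and 371 in set 3. The pools and the duplex were alike in this, with 392 and 365 after 3p KD and 441 and 401 after 5p KD in sets 2 and 3. SATS KD left more, 947 and 1051, or 50.5% and 49.7% of scr in the same set. Untreated cells had 1619 and luciferase-treated cells 2200, near the scr libraries of their sets.

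In scr-treated mESCs the members differed widely in level. Per kb of exon, and averaged over the scr libraries of sets 2 and 3, *Cdc20*, the activator of the anaphase-promoting complex, was highest at 2881 normalised reads per kb. *Top2a*, which untangles DNA, followed at 1173, *Ccnb1* (cyclin B1) at 1128 and *Plk1* (the polo kinase) at 1125. Those last 3 overlapped between the sets, so their order is not resolved. The phosphatases *Cdc25b* at 90.1 and *Cdc25c* at 61.9, which release CDK1 from inhibition, closed the list. Of the condensin I genes, the ATPase subunit *Smc2* stood at 667 and its partner *Smc4* at 608, the HEAT-repeat subunit *Ncapd2* at 744, and *Ncapg* and the kleisin *Ncaph* lower, at 240 and 251.

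The sets themselves differed before any KD. Between the scr libraries of sets 2 and 3, 30 of 41 members were higher in set 3, with a median log2 difference of 0.10 against 0.00 over all expressed genes (-0.0048). *Ncapg* was 0.54 higher on the log2 scale and *Ube2c*, the ubiquitin-conjugating enzyme of the anaphase-promoting complex, 0.64 lower (-0.64). Each KD library was therefore set against scr of its own set, and the fits below hold the set as a block.

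**Figure D2:**
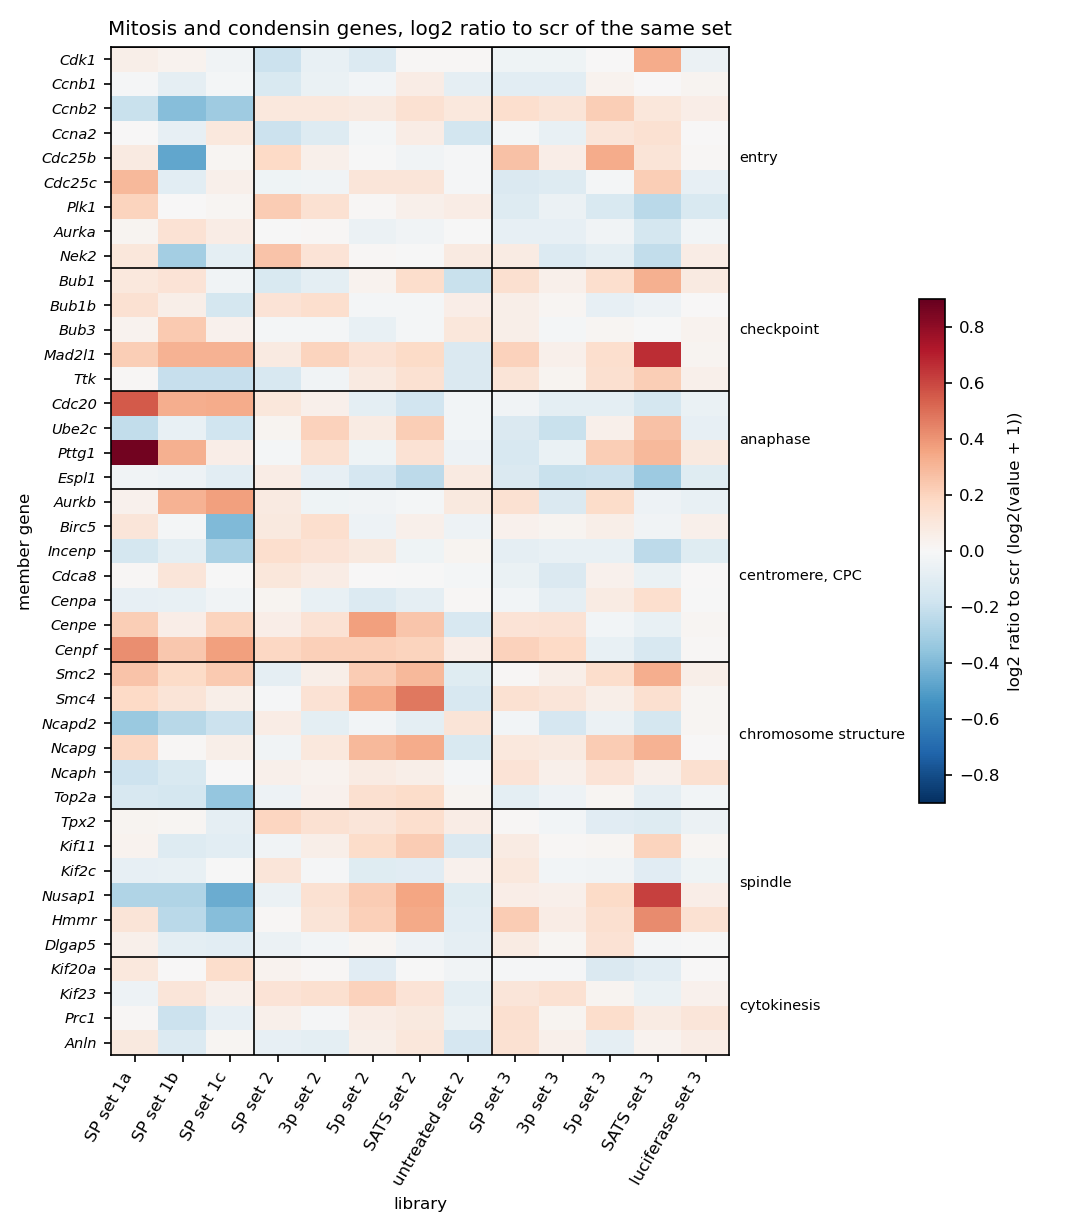
Log2 ratio of each member (vertical axis, grouped by role) to scr of the same set, for 13 libraries (horizontal axis), from log2 of the normalised read count plus 1. Colours stay pale across sets 2 and 3 except for *Mad2l1* and *Nusap1* in SATS set 3, at 0.66 and 0.62; the SP libraries of set 1 show a wider scatter.

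SP, 3p and 5p KD left the 41 members close to their scr levels. With limma on log2 of the normalised read count plus 1, at a Benjamini-Hochberg adjusted p under 0.05 over 16490 genes, 0 of 41 members passed in each of the 3 comparisons. Over all genes 0.746% passed for SP, 0.285% for 3p and 2.37% for 5p. At an unadjusted p under 0.05, limma gave 1, 0 and 5 members, and edgeR and DESeq2 on the recovered reads, which also called 0 members after adjustment, gave 0, 0 and 3 each. Over all genes, limma had 12.5%, 10.4% and 15.7% at an unadjusted p under 0.05 in SP, 3p and 5p, so that the members were not in excess of the background. The median log2 fold change of the members was 0.03 for SP, 0.00 for 3p (0.0042) and 0.06 for 5p, beside 0.00, 0.00 and 0.01 over all genes tested. For all 41 members the 95% confidence interval lay within 0.5 on the log2 scale (1.41-fold) in either direction in each of these KDs. Changes larger than that were thus outside the intervals, and smaller ones were not resolved.

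The member nearest to the threshold in these 3 comparisons was *Ncapg*, which encodes a HEAT-repeat subunit of condensin I, after 5p KD. Its normalised read count was 1381 and 2014 in scr and 1695 and 2356 in 5p, in sets 2 and 3. It was higher than scr within both sets, by 0.26 on the log2 scale (SE 0.07, limma Benjamini-Hochberg adjusted p = 0.088). With the correction for transcript GC content described below, it was 0.21 (limma Benjamini-Hochberg adjusted p = 0.115). Between 5p and 3p, the siRNAs against opposite ends of *Stag1*, 0 of 41 members passed, against 3.26% of all genes. One member had an unadjusted p under 0.05 in limma (*Ncapg*, log2 difference 0.17, 95% interval 0.01 to 0.33), and 0 did in edgeR or DESeq2.

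After SATS KD, 4 members rose: the spindle genes *Nusap1* and *Hmmr* and the condensin I genes *Smc2* and *Ncapg*. None fell. By limma, 2.64% of all genes passed in this comparison and 1.90% passed as higher, so 4 of 41 is above the background of the comparison. At an unadjusted p under 0.05 stood 12 of the 41 members, 10 higher and 2 lower, against 18.8% of all genes. edgeR on the recovered reads called 4 members and DESeq2 6, adding *Mad2l1* as higher and *Espl1* as lower. Over all genes they called 550 of 16490 and 849 of 11055. The members as a whole did not shift, with a median log2 fold change of 0.04 and 27 of 41 higher. In set 2 the median of the log2 ratios was 0.07 and in set 3 it was 0.00 (0.0034).

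*Nusap1*, which bundles microtubules around chromosomes (chromosome 2, 119618298 to 119651244), was the member that moved most. Its normalised read count was 989 in scr, 953 in SP, 1088 in 3p, 1161 in 5p, 1266 in SATS and 919 in untreated cells of set 2, and 1097, 1146, 1133, 1237 and 1682 in the same order in set 3, with 1146 after luciferase siRNA. SATS was the highest library of either set, and its libraries did not overlap those of scr. The log2 fold change was 0.49 (SE 0.09, 95% interval 0.29 to 0.68, limma Benjamini-Hochberg adjusted p = 0.0209), or 1.40-fold.

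*Hmmr*, which encodes a microtubule-binding protein of the spindle pole (chromosome 11, 40701395 to 40733422), was also called. In set 2 it was 1835 in scr, 1849 in SP, 1992 in 3p, 2126 in 5p, 2324 in SATS and 1717 in untreated cells. In set 3 it was 1935 in scr, 2262 in SP, 2030 in 3p, 2134 in 5p, 2601 in SATS and 2131 after luciferase siRNA. SATS was again the highest library in both sets. The log2 fold change in SATS was 0.38 (SE 0.08, limma Benjamini-Hochberg adjusted p = 0.0297).

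The called condensin genes also had their highest value of each set in SATS, from levels that differed between the sets. *Smc2* (chromosome 4, 52439243 to 52488260), an ATPase subunit that both condensins use, was 3280 in scr, 3100 in SP, 3400 in 3p, 3847 in 5p, 4021 in SATS and 3044 in untreated cells of set 2. In set 3 it was 4026 in scr, 4047 in SP, 4176 in 3p, 4485 in 5p, 5061 in SATS and 4174 after luciferase siRNA. SATS was highest in each set, although its set 2 library lay just under scr of set 3. The log2 fold change was 0.31 (SE 0.07, limma Benjamini-Hochberg adjusted p = 0.0369).

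*Ncapg* (chromosome 5, 45669919 to 45700546) was 1381 in scr, 1349 in SP, 1473 in 3p, 1695 in 5p, 1738 in SATS and 1258 in untreated cells of set 2. In set 3 it was 2014 in scr, 2155 in SP, 2130 in 3p, 2356 in 5p, 2497 in SATS and 2018 after luciferase siRNA. The difference between the sets exceeded that between the KDs, and SATS led within each set. The log2 fold change was 0.32 (SE 0.07, limma Benjamini-Hochberg adjusted p = 0.0374). Exons of *Ncapg* overlap those of *Lcorl* on the other strand over 944 bases, and those of *Nusap1* overlap *Oip5* over 172. Whether every library was counted by strand is not stated, so reads in these stretches cannot be told apart.

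**Figure D3:**
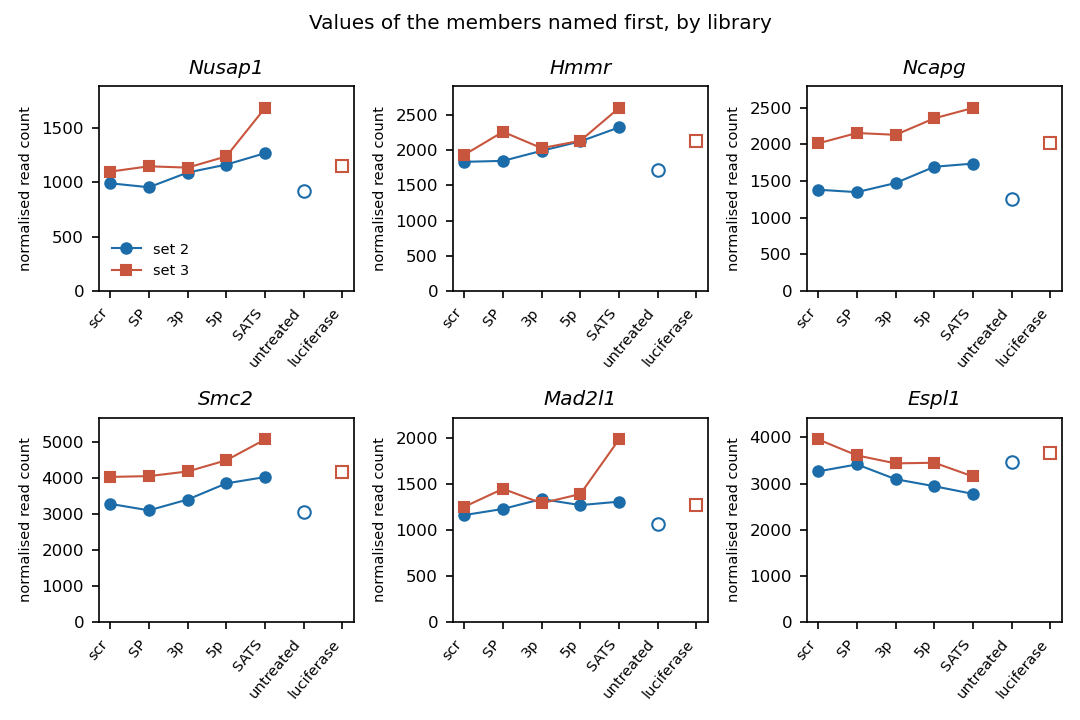
Normalised read count (vertical axes, from 0) of 6 members in the libraries of set 2 (blue circles) and set 3 (red squares), with lines joining the libraries of a set and open symbols for untreated and luciferase-treated cells. SATS is the highest library of its set for *Nusap1*, *Hmmr*, *Ncapg* and *Smc2* and the lowest for *Espl1*; *Mad2l1* stands apart in SATS set 3 alone, at 1989.

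Several other members approached the threshold without passing it. *Mad2l1*, the checkpoint protein that inhibits CDC20, was 1167 in scr, 1234 in SP, 1342 in 3p, 1276 in 5p and 1313 in SATS of set 2, and 1257, 1453, 1296, 1396 and 1989 in set 3. Untreated cells had 1068 and luciferase-treated cells 1276. Its log2 fold change in SATS, 0.42 (95% interval 0.17 to 0.67, limma Benjamini-Hochberg adjusted p = 0.0723), came mostly from set 3, where the ratio was 0.66 against 0.17 in set 2. *Espl1*, which encodes separase, went the other way. It was 3263 in scr, 3414 in SP, 3094 in 3p, 2942 in 5p, 2776 in SATS and 3456 in untreated cells of set 2, and 3952, 3608, 3435, 3450 and 3153 in set 3, with 3659 after luciferase siRNA. SATS had the lowest value of each set, with a log2 fold change of -0.28 (95% interval -0.44 to -0.12, limma Benjamini-Hochberg adjusted p = 0.0600).

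By role, the calls after SATS KD fell in chromosome structure (2 of 6) and the spindle (2 of 6), with 0 in the other 5 roles by limma. Of those 5, the checkpoint and anaphase genes had 3 members each at an unadjusted p under 0.05, the other roles 0, and edgeR also called 0 in them. Within condensin I, the log2 fold change of *Smc4* was 0.31 (95% interval 0.09 to 0.53), that of *Ncaph* 0.05 (-0.10 to 0.21) and that of *Ncapd2* -0.12 (-0.27 to 0.03), so subunits of 1 complex had values on both sides of 0. *Top2a* was 9959 and 11193 in scr, 9630 and 10529 in SP, 10228 and 10833 in 3p, 11025 and 11342 in 5p, and 11175 and 10602 in SATS of sets 2 and 3, with 10124 in untreated and 11018 in luciferase-treated cells. The groups overlapped, and its SATS log2 fold change was 0.04 (-0.13 to 0.22).

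The entry genes gave no call. *Cdk1*, the mitotic kinase, was 2061 and 2150 in scr, 1805 and 2092 in SP, 1969 and 2089 in 3p, 1893 and 2152 in 5p, and 2075 and 2705 in SATS of sets 2 and 3, with 2073 in untreated and 2075 in luciferase-treated cells. Only the SATS library of set 3 stood above the others, and the SATS log2 fold change was 0.17 (-0.01 to 0.35). *Ccnb1* was 4353 and 5160 in scr, 3952 and 4831 in SP, 4184 and 4828 in 3p, 4277 and 5279 in 5p, and 4561 and 5172 in SATS, with 4125 in untreated and 5258 in luciferase-treated cells. Its SATS log2 fold change was 0.04 (-0.12 to 0.19), and the groups overlapped. *Plk1* was 2553 and 2394 in scr, 2994 and 2214 in SP, 2805 and 2306 in 3p, 2566 and 2182 in 5p, and 2629 and 2021 in SATS, with 2671 in untreated and 2174 in luciferase-treated cells. It was above scr in set 2 and below it in set 3 in every KD. The fitted difference in SATS was -0.10 (-0.28 to 0.08).

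Among the remaining members, the log2 fold change in SATS ranged from -0.16 for *Cdc20* to 0.24 for *Ube2c*. The checkpoint kinase *Bub1* stood at 0.24 (0.07 to 0.41) and *Kif11*, the motor that separates the poles, at 0.22 (0.05 to 0.38), neither of them past the adjusted threshold. The 7 centromere and CPC members, which include the histone variant *Cenpa* and the kinase *Aurkb*, lay between -0.13 (*Incenp*) and 0.09 (*Cenpe*). The 4 cytokinesis members lay between -0.05 (*Kif20a*) and 0.08 (*Prc1*).

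**Figure D4:**
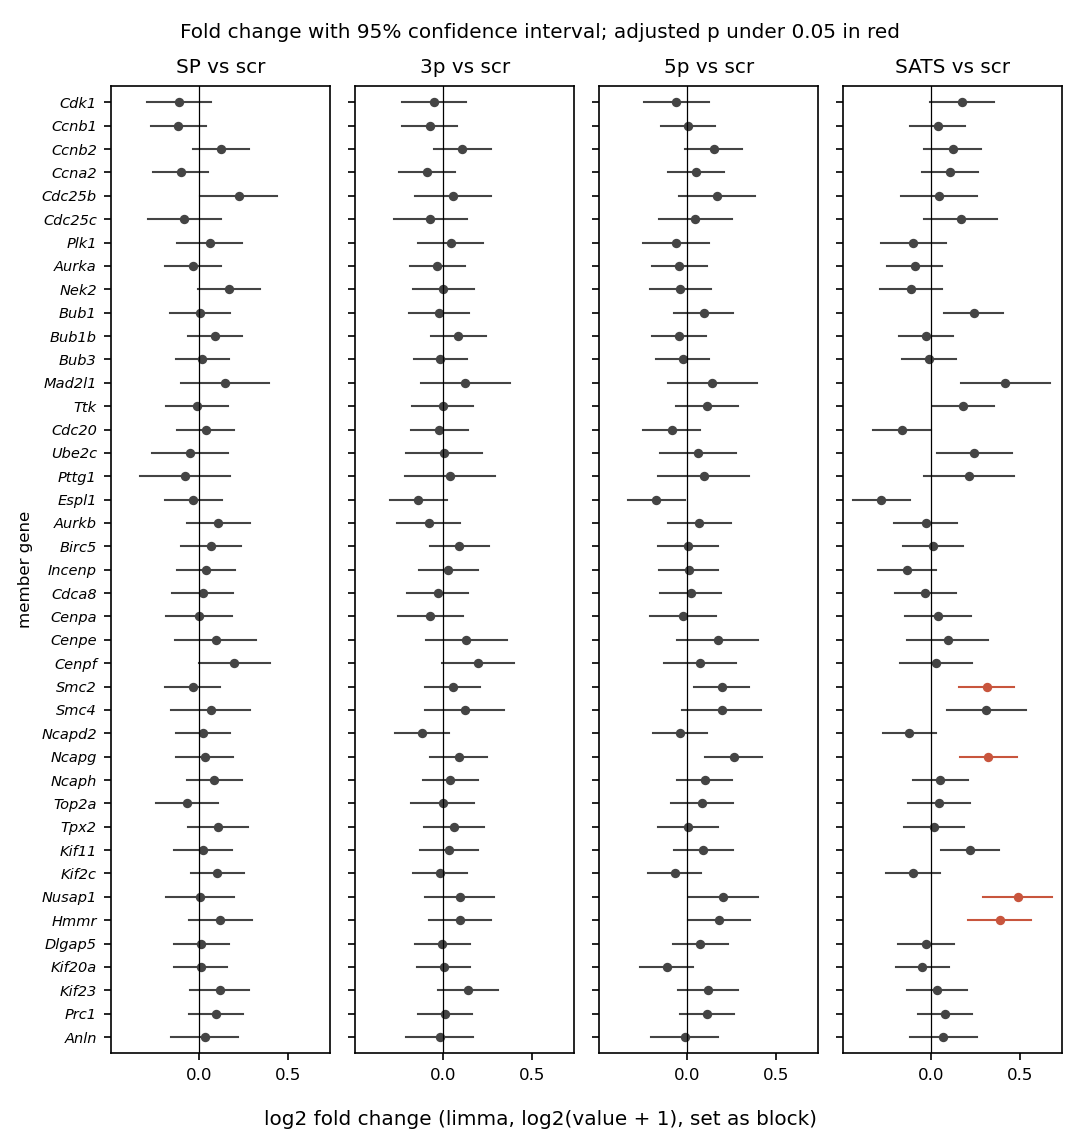
Log2 fold change against scr (horizontal axes) of each member (vertical axis) with its 95% confidence interval, for SP, 3p, 5p and SATS in the limma fit of sets 2 and 3 with the set as a block. Red marks the 4 members that passed after adjustment, which appear for SATS alone; whether a member differed between KDs is a separate test, given in the text.

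A comparison of SATS with the mean of SP, 3p and 5p, in which scr enters only the estimate of spread, was added after the values were seen and tested the difference between the KDs itself. In it 4 of 41 members were called, all higher in SATS. Over all genes 9.36% were called in either direction, a share close to that of the members, and 1016 of 16490 were called higher. At an unadjusted p under 0.05 in limma stood 17 of the 41 members, 13 higher and 4 lower, against 24.8% of all genes. The members called were *Nusap1* (log2 difference 0.39, SE 0.07, limma Benjamini-Hochberg adjusted p = 0.0073), *Smc2* (0.24, SE 0.06, adjusted p = 0.0216), *Hmmr* (0.25, SE 0.07, adjusted p = 0.0302) and *Cdk1* (0.25, SE 0.07, adjusted p = 0.0383). In the mean of all 4 KDs against scr, 0 of 41 members passed in limma, against 0.109% of all genes, and 6 had an unadjusted p under 0.05, close to the 12.2% of all genes at that level. edgeR and DESeq2 likewise called 0 members, with 6 each under an unadjusted 0.05. The smallest of these p-values was that of *Hmmr*, whose log2 fold change was 0.19 (95% interval 0.05 to 0.33). With the GC trend removed none of these 4 passed in limma: *Nusap1* was 0.23 (adjusted p = 0.0597), *Cdk1* 0.22 (0.0576), *Hmmr* 0.09 (0.340) and *Smc2* 0.01 (0.942, log2 difference 0.0096). Without SATS of set 3 or SP of set 2, which leaves 1 library in that group, the comparison of SATS with the other KDs called fewer members. It also called fewer of all genes, so the loss is not particular to the members. These comparisons share libraries and are not independent of those above.

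The size of the change after SATS KD followed the base composition of the transcripts. The GC content of the longest coding transcript ran from 39.7% for *Smc2* to 56.1% for *Espl1* among the members, with a median of 47.3% against 50.2% over 10468 expressed genes. Across the 41 members, Pearson's r between GC content and the SATS log2 fold change was -0.73, and across the 10468 genes it was -0.39. The 14 members of lowest GC had a median log2 fold change of 0.23, the middle 13 one of 0.05, and the 14 of highest GC one of -0.10. The relation was not particular to SATS. In 5p, 3p and SP against scr, r was -0.63, -0.42 and 0.06 across the members. Across all these genes it was -0.13, -0.04 and 0.10. Members are not replicates and share the same libraries, so these are descriptions without a test.

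Libraries without any *Stag1* siRNA showed such relations too. Against scr of set 2, the untreated library had an r of 0.64 across the members and 0.45 across all genes, the opposite sign to SATS. Against scr of set 3, the luciferase library had an r of -0.58 across the members and -0.19 across all genes. With each library's trend on GC removed, an alternative chosen after seeing the data, 0 of 41 members passed in SATS against scr, while 193 genes did, and 5 members had an unadjusted p under 0.05 in limma. *Nusap1* then had a log2 fold change of 0.32 (adjusted p = 0.071), *Hmmr* 0.22 (0.118), *Ncapg* 0.09 (0.550) and *Smc2* 0.07 (0.634), all by limma with Benjamini-Hochberg adjustment. The condensin values thus fell close to 0, and *Nusap1* and *Hmmr* kept more of theirs. The KD and the GC trend moved together, and this correction cannot tell them apart.

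The 4 calls also depended on the design and on single libraries. Without the set as a block limma called 0 members, with 2 at an unadjusted p under 0.05. Without the filter on low values it called 0. These fits called 0 of 16490 and 0 of 18659 genes in all, so these zeros are not particular to the members. Leaving out scr of set 2, scr of set 3 or SATS of set 3, which leaves that group without a replicate, also removed the member calls. These fits also called far fewer of all genes, so the loss is not particular to the members. Without SATS of set 2, *Nusap1*, *Hmmr* and *Mad2l1* were called, and without SP of either set *Smc2* was no longer called.

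**Figure D5:**
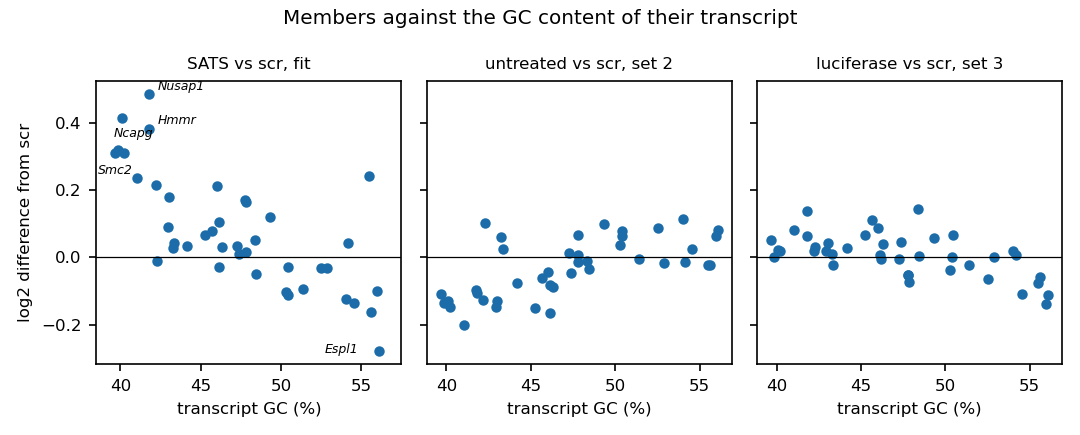
Log2 difference from scr (vertical axes) of the 41 members against the GC content of their longest coding transcript in percent (horizontal axes), for the SATS fit of sets 2 and 3, the untreated library of set 2 and the luciferase library of set 3. The members slope down for SATS (r of -0.73) and luciferase (-0.58) and up for untreated cells (0.64).

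A marker gene of another cell type, *Krt8*, was also called in the SATS libraries. The summed normalised read count of the 8 trophectoderm markers was 26623 and 8118 in scr and 32261 and 12121 in SATS of sets 2 and 3, between 7093 and 23251 in SP, 7662 and 24618 in 3p and 5824 and 24952 in 5p. *Krt8*, a keratin and the most abundant of these markers, rose by 0.54 on the log2 scale after SATS KD (SE 0.13, limma Benjamini-Hochberg adjusted p = 0.0374), and it was the only call among the 7 of 8 markers tested, of which 3 were higher and 4 lower, with a median log2 fold change of -0.04. *Elf5* had under 10 reads in all these libraries. The 8 mESC markers summed to 36180 and 35661 in scr and 35488 and 37996 in SATS, the 12 fibroblast markers to 3085 and 678 in scr and 3883 and 662 in SATS, and the 10 primitive endoderm markers to 5405 and 2136 in scr and 5324 and 1829 in SATS. In SATS against the mean of the other KDs, limma called the trophectoderm markers *Krt8* (0.69), *Krt18* (0.58) and *Tfap2c* (0.34) higher. It also called the fibroblast marker *Col1a1* (0.69) higher. In that comparison 5 of the 7 trophectoderm markers tested were higher and 2 lower. Of the 11 fibroblast markers tested, 6 were higher and 5 lower, with a median of 0.02. All 10 primitive endoderm markers had values below 0 there, with a median of -0.28, and *Lama1* (-0.46) was called lower. In 5p against scr, limma called *Col1a1* (-0.75) and *Tfap2c* (-0.42) lower and *Lama1* (0.71) higher. None of these was called in SATS against scr, and the 5p libraries are part of the mean of the other KDs. *Col1a1* did not speak for its list in 5p, where 8 of the 11 fibroblast markers tested were higher and 3 lower, with a median of 0.08. Of the 7 trophectoderm markers tested, 1 was higher and 6 were lower in 5p. Of the 10 primitive endoderm markers, 8 were higher and 2 lower. The part of such cells in the member values was not tested.

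SP KD was the only one with 3 sets. Over these, with libraries 1a, 1b and 1c averaged, 0 of 41 members passed in limma, against 0% of 15970 genes, where edgeR called 66 genes and DESeq2 53, none of them members. *Cenpf*, a kinetochore and nuclear envelope protein gene, was the 1 member with an unadjusted p under 0.05 in limma, and is given here because of that value. edgeR and DESeq2 also had 1 member under that level. It was 4828 in scr and 6459, 5709 and 6241 in SP of set 1, 3579 and 4075 in set 2, and 4032 and 4655 in set 3. SP was above scr in all 3 sets, with a log2 fold change of 0.25 (95% interval 0.08 to 0.42) and a limma Benjamini-Hochberg adjusted p of 0.759.

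The members followed in full above had these values in set 1, where SP 1a, 1b and 1c share 1 scr library. *Nusap1* was 2123 in scr and 1763, 1756 and 1554 in SP, so every SP library lay below scr, and the log2 fold change over 3 sets was -0.11 (95% interval -0.35 to 0.13). *Hmmr* was 3268 in scr and 3535, 2766 and 2505 in SP, on both sides of scr, with 0.03 (-0.20 to 0.25) over 3 sets. The 2 spindle genes that rose after SATS KD thus had SP values around or below scr in set 1. *Smc2* was 3824 in scr and 4569, 4319 and 4510 in SP, and *Ncapg* was 2190 in scr and 2491, 2206 and 2271 in SP. Both lay above scr in the 3 SP libraries of set 1 and below it in set 2, with 0.05 over 3 sets for each.

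*Mad2l1* was 1279 in scr and 1495, 1589 and 1587 in SP of set 1, above scr as in the other sets, with a log2 fold change of 0.19 (-0.01 to 0.39) over 3 sets. *Espl1* was 3609 in scr and 3535, 3489 and 3374 in SP, a little below scr. *Ccnb1* was 4969 in scr and 4926, 4695 and 4905 in SP, and *Top2a* was 15288 in scr and 13802, 13707 and 12040 in SP. Both were below scr in all 5 SP libraries, with -0.09 (-0.25 to 0.07) and -0.12 (-0.28 to 0.05) over 3 sets. *Cdk1* was 1935 in scr and 2012, 1978 and 1893 in SP, and *Plk1* was 2438 in scr and 2806, 2444 and 2472 in SP. Over the 5 SP libraries, each of them had values on either side of scr of the same set.

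In set 1 the ratios of single members ranged from -0.46 (*Cdc25b*, 1b) to 0.87 (*Pttg1*, 1a), and the median over members was 0.04, -0.05 and -0.01 in 1a, 1b and 1c (-0.0062 in the last).

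Wider lists of mitotic genes, named with earlier results of these data known, held further calls in the same comparison. Their counts are to be read against the 1.90% of all genes called higher in SATS. After SATS KD, 6 of 38 further kinetochore and centromere genes rose and 0 fell, with a median log2 fold change of 0.14, among them *Cenpk* (0.71), *Cenpq* (0.70), *Spc25* (0.48) and *Sgol2a*, the shugoshin that protects cohesin at the centromere (0.39). Of 40 further spindle and cytokinesis genes 4 rose and 0 fell, with a median of 0.03. These were the kinesins *Kif18a* (0.49) and *Kif20b* (0.39), the abscission gene *Cep55* (0.38) and *Depdc1a* (0.68). Of 18 regulators of entry only *Cks2*, a CDK subunit, rose (0.46), and of 17 transcriptional regulators of the CHR only *E2f5* (0.49). Single calls in lists of this length are too few to set against that share. Of the 3 genes of condensin II and the 17 of the anaphase-promoting complex 0 passed in limma or edgeR, with 0 and 2 at an unadjusted p under 0.05 in limma. *Ccne2*, a cyclin of the G1/S transition, rose by 1.08 and was the 1 called gene of 36 on the G1/S list. Without the set as a block every list had 0 calls, and 0 of all 16490 genes tested were called. With the GC trend removed *Ccne2* was still called and the kinetochore, spindle, entry and CHR lists had 0 calls in limma.

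The same lists gave other genes in the other KDs. After 5p KD, *Cenpl* (-0.56) and *Ska3* (-0.40) fell among the 38 kinetochore genes, *Arhgap11a* fell (-0.82) and *Cenpj* rose (0.43) among the 40 spindle and cytokinesis genes, and *Cdc27*, a core subunit of the anaphase-promoting complex, fell by 0.51 on the log2 scale. *Rbl1*, the pocket protein p107, rose by 0.45. On the G1/S list *Ccne2* rose (0.58), and *Cdc6* and *Chaf1a* fell (-0.36 and -0.34). The kinesin *Kif5b* fell after SP KD (-0.97) and 3p KD (-0.62), and *Cdkn1a*, the CDK inhibitor p21, rose after 3p KD (0.49). All of these passed by limma with Benjamini-Hochberg adjustment. Each list had at most 3 calls in any of these KDs, where 2.37%, 0.746% and 0.285% of all genes passed in 5p, SP and 3p, and such counts are too few to set a list apart from all genes.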

How the data were processed

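Strand-specific libraries depleted of rRNA were sequenced by the authors, who aligned reads to mm10 with HISAT2, per the labels and the methods, removed low-expressed genes and divided gene counts by 1 DESeq2 size factor per library. The deposited values are this normalised signal for 18659 genes in 16 libraries. Dividing by what 1 read is worth in each library returned whole reads for 100% of values (tolerance 0.001). A table of CPM for set 1 alone, in which the authors removed low genes, was not used, and neither were libraries of cells in 2i medium. Members' gene models came from GENCODE M21 and promoters from RefSeq (GRCm38.p6).

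Differences were fitted with limma 3.58.1 (R 4.3.3) to log2 of the value plus 1, for genes whose values summed to at least 10, with Benjamini-Hochberg adjusted p under 0.05 over all genes tested and empirical Bayes moderation with a trend. The 10 libraries of scr, SP, 3p, 5p and SATS in sets 2 and 3 shared 1 fit. The set was a block because each library is read against scr of its own set, and the authors' methods name no such term. Deviations from the group mean over 3 sets were correlated between scr and SP of 1 set (0.804, 0.823 and 0.772 for sets 1, 2 and 3, over 11057 genes). These correlations include the shallower set 1 and leave out 3p, 5p and SATS. They therefore cannot show whether the block is needed in the fit of sets 2 and 3. The set numbers come from the labels. For SP over 3 sets, libraries 1a to 1c were averaged. The models were tested on simulated data. Alternatives were no block, edgeR 4.0.16 and DESeq2 1.42.0 on the recovered reads, pseudocounts of 0.1 and 10, no filter, a mean value of at least 50, CPM without *Rn45s* with TMM factors, untreated and luciferase libraries as further controls, and leaving out each library. A correction for transcript GC content (a spline per library with 4 degrees of freedom) and the comparison of SATS with the other KDs were added after seeing the data. edgeR called 134, 50, 397 and 550 genes for SP, 3p, 5p and SATS.

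The members and all gene lists were chosen with earlier results of these data known. Values in every library are given for the 6 members of lowest p in the mean of the 4 KDs, because none was called in at least 2 KDs, and for *Ccnb1*, *Cdk1*, *Plk1*, *Top2a* and *Smc2* whatever their values. Of other lists, at most 4 called genes each are named. The pseudocount shrinks differences of genes with few reads, and the members have at least 494 in sets 2 and 3.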

Additional observations from a re-analysis of the deposited data

Results flagged for a closer look

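The differences between the SATS KD and the mean of the SP, 3p and 5p KDs, tested as such, passed in limma with Benjamini-Hochberg adjustment for 4 of the 41 members. On the log2 scale they were 0.39 for *Nusap1*, 0.25 for *Hmmr*, 0.24 for *Smc2* and 0.25 for *Cdk1*, all higher in SATS, in a comparison that called 9.36% of all genes. For *Cdk1* the 2 sets differed, with 2705 normalised reads in SATS of set 3 against 2089 to 2152 in the other KDs and scr of that set, and 2075 in SATS of set 2 against 1805 to 2061. With the GC trend removed the 4 differences were 0.23, 0.09, 0.01 (0.0096) and 0.22 in the same order, and none passed.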

How the results depend on the processing

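Fits without the set as a block called 0 members in SATS against scr and 0 in SATS against the mean of the other KDs. The blocked fits called 4 each. Over all genes the fits without the block called 0 and 1 of 16490. Without the filter on low values both member counts were 0, beside 0 and 16 of 18659 genes. With the GC trend removed the member counts were 0 and 2 (*Ube2c* higher, 0.29, and *Cenpf* lower, -0.24), beside 193 and 1107 of 14717 genes. DESeq2 called 7 members in SATS against the other KDs, beside 1702 of 11694 genes. Adding the untreated and luciferase libraries as controls gave 10 calls in SATS, 2 in 5p and 3 in the mean of the 4 KDs. Over all genes that fit called 1785, 1119 and 746 of 16684 in the same order. On leaving out 1 library, the calls ranged from 0 to 5 in SATS against scr and from 0 to 6 in SATS against the other KDs, and stayed at 0 in the other comparisons.

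The median log2 fold change of the members in SP was 0.05 with the added controls (0.0507) and 0.0131 to 0.0535 on leaving out 1 library. In 5p it was 0.0496 with edgeR, 0.0518 with DESeq2, 0.0555 with CPM and TMM, 0.0489 with the GC trend removed, 0.0641 with the added controls, and 0.0208 to 0.0680 on leaving out 1 library. The same range was -0.0108 to 0.0444 in 3p, -0.0046 to 0.0753 in SATS and 0.0163 to 0.0521 in the mean of the 4 KDs. Members near 0 in SATS changed sign without ever being called. *Ccnb1* was -0.0566 with the GC trend removed and -0.0046 to 0.0753 on leaving out 1 library, below 0 without SATS of set 2. *Plk1* was -0.221 to 0.0192 on leaving out 1 library, above 0 without scr of set 3. *Top2a* was -0.0696 with the GC trend removed and -0.0465 to 0.135 on leaving out 1 library, below 0 without scr of set 2 (-0.0182) or SATS of set 2. Beyond the fewer genes or libraries that an alternative uses by construction, the cause of these shifts was not tested. Each KD of sets 2 and 3 has 2 libraries, and the members have at least 494 reads in each, so their number bounds the precision.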
